A study of Mus musculus with 6 samples.

Results

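Integrins are paired adhesion receptors, each made of 1 alpha and 1 beta subunit. A set of 10 subunit genes that mark or serve leukocytes and microglia were examined, namely Itgam, Itgax, Itgal, Itgb2, Itgb1, Itga4, Itgb5, Itgav, Itgb7 and Itga6. They were taken by gene symbol from the 55401 gene rows of the count table, and all 10 of the 10 were among the 19554 genes with enough counts to be tested.

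RNA was sequenced from CD11b-selected brain cells of untreated MRL/lpr and MRL/mpj mice aged 6 weeks, with 3 libraries per strain. MRL/lpr mice carry the Fas lpr mutation on the MRL background and develop a lupus-like disease, and MRL/mpj is the control strain on the same background. The cells of both strains were taken from perfused, enzyme-digested brains by a Percoll step and magnetic beads against CD11b, so the product of Itgam served to choose them. The study's purpose was to find how microglia of the lupus-prone strain differ from those of the control strain. The study describes the replicates as mice and the mice as female, while the labels neither tie a library to an animal nor give a sex. The p-values measure the spread between the libraries of a strain.

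Libraries held between 45481609 and 49846634 counts. The 10 microglia markers, P2ry12, Tmem119 and Csf1r among them, summed to between 22210 and 24840 CPM (counts scaled by library total and TMM factor) in MRL/lpr and between 25300 and 25970 CPM in MRL/mpj, so the labelled cell type was present in each library. Markers of other cells were also present and are given beside the genes they move with. The mitochondrial share was 3.06% to 3.49% in MRL/lpr and 5.84% to 6.38% in MRL/mpj. A single RNA, CT010467.1, made up 6.38% of MRL/lpr replicate 3 and at most 0.457% of any other library. Xist counts lay between 8886 and 11319 in MRL/lpr and between 27 and 38 in MRL/mpj, while 4 Y-linked genes summed to between 8408 and 15046 counts in every library. The Xist level thus differed with strain. Y-linked counts in every library, with little Xist in MRL/mpj, are at odds with the study's description of the mice as female. In MRL/lpr both Xist and Y-linked RNA were counted, and whether each library came from a single animal is not given in the labels. A difference in the sex of the source animals cannot be told apart from the strain in any comparison below.

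The beta 2 integrins are the classical leukocyte integrins: Itgb2 encodes the shared beta chain CD18, and Itgal, Itgam, Itgax and Itgad encode the alpha chains CD11a, CD11b, CD11c and CD11d. CD11b with CD18 is complement receptor 3, which binds the opsonin iC3b and is carried by microglia. Alpha 4 pairs with beta 1 to bind VCAM-1 and with beta 7 to bind MAdCAM-1, and beta 7 also pairs with alpha E, which binds E-cadherin. Alpha V with beta 5 or beta 8 binds vitronectin, milk fat globule proteins or latent TGF-beta, and alpha 6 with beta 1 or beta 4 binds laminin.

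By the study's rule, a log2 fold change of 1 or more in size and an adjusted p under 0.05, 4 members passed. Itgal, Itga4 and Itgb7 were higher in MRL/lpr, and Itgax was lower. For 3 of these, the 250 bases before the RefSeq transcription start (GRCm38.p6, printed 5′ to 3′ on the strand of the gene) show the sequence in front of genes that differed between the strains, with matches to 4 searched motifs in capitals. Itgal had no entry in the promoter table.
Itgax, chr7:128129300-128129549, plus strand: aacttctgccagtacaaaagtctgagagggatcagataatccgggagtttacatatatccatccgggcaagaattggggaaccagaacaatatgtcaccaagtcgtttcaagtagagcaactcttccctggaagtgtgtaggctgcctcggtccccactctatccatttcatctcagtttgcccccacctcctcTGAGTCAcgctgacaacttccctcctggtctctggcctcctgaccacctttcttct
Itga4, chr2:79255176-79255425, plus strand: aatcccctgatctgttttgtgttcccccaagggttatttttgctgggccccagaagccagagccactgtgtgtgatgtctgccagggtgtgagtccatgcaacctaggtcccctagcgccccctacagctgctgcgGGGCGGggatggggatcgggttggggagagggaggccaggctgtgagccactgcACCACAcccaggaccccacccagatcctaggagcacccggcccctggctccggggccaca
Itgb7, chr15:102231936-102232185, minus strand: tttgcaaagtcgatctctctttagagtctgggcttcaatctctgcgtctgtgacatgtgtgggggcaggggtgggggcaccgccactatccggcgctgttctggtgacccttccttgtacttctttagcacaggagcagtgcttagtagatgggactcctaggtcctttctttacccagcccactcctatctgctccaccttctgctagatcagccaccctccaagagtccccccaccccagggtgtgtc

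The motifs were searched on both strands over 300 bases, from 250 before to 50 after the start, and no 2 matches in these promoters overlapped. They were GAGGAA, an ETS core as bound by the myeloid factor PU.1, TGTGGT, bound by RUNX factors, GGGCGG, an Sp1 GC box, and TGANTCA, an AP-1 site. Among all 32851 promoter windows of this length, 28.3% held GAGGAA, 16.8% TGTGGT, 35.7% GGGCGG and 7.81% TGANTCA. The Itgax window held an AP-1 match at position -56 from the start and a RUNX match at 13. In the Itga4 window a GC box lay at -114 and a RUNX match on the opposite strand at -60. The Itgb7 window held 1 match, to the ETS core on the opposite strand at position 2, past the printed bases. These matches describe letters in the window and not bound sites. Of the other windows, that of Itgam held the ETS core 3 times, at -84, -15 and 32, and a GC box at -47. The Itgav window held the ETS core at -218 and -7 and the Itgb1 window at -9, while the Itgb5 window held GC boxes only.

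In all, 3 of the 10 members were higher in MRL/lpr at an adjusted p under 0.05, beside 11.1% of all genes tested, and 2 were lower, beside 9.06%. Together these 5 members are 50% of the members, against 20.2% of all genes tested in either direction. By the study's rule 3 members were higher and 1 was lower, where the shares of all genes were 4.67% and 3.66%. The CPM of the strains did not overlap for 8 members, beside 39% of all genes. The median log2 fold change of the members was 0.01, and that of all genes tested was -0.009. When libraries were scaled by their totals alone, the median of all genes moved to -0.133, so small differences below are read against that shift.

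**Figure D1:**
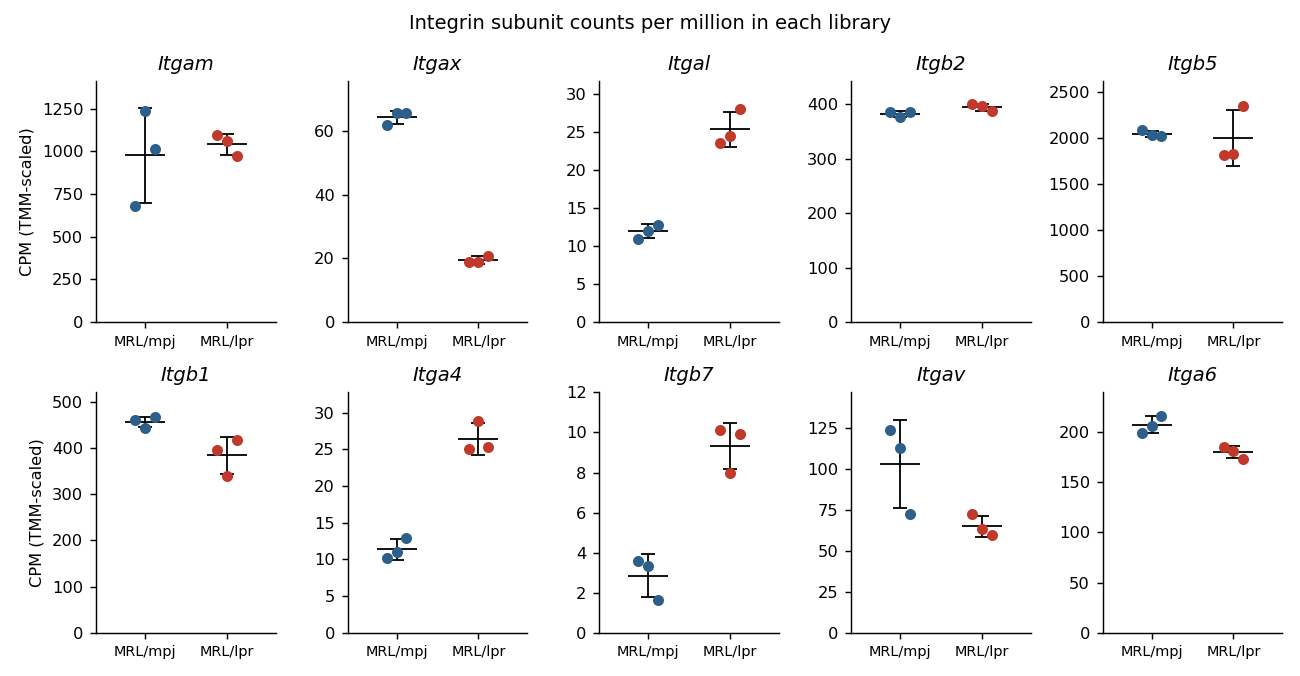
TMM-scaled counts (CPM) of the 10 integrin genes in each library (points), with the mean and SD of 3 libraries per strain (lines and bars); each vertical axis starts at 0. Itgax sits near 64.3 CPM in MRL/mpj and 19.5 CPM in MRL/lpr, Itgal, Itga4 and Itgb7 are higher in MRL/lpr, and Itgam, Itgb2 and Itgb5 lie near the same level in both strains.

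Within the beta 2 family the alpha chains went different ways while the beta chain stayed near one level. Itgax (ENSMUSG00000030789, chromosome 7, 128129547 to 128150657, GRCm38), the CD11c chain that marks dendritic cells and subsets of microglia, had 892, 881 and 872 counts in MRL/lpr and 3181, 3276 and 3407 in MRL/mpj. The lowest MRL/mpj library was therefore far above the highest MRL/lpr library. Its level was 19.5 ± 1.17 CPM in MRL/lpr and 64.3 ± 2.08 CPM in MRL/mpj (SD, n = 3 each), a log2 fold change of -1.72 (SE 0.09, edgeR adjusted p = 1.95e-06), or 3.29-fold lower in MRL/lpr. Leaving out any 1 library kept the change between -1.77 and -1.69.

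Itgal (ENSMUSG00000030830, chromosome 7, 127296260 to 127335138) encodes CD11a, the alpha chain of LFA-1, which binds ICAM-1 and is abundant on lymphocytes. It had 1110, 1149 and 1169 counts in MRL/lpr and 564, 601 and 666 in MRL/mpj, without overlap. The means were 25.3 ± 2.32 and 11.9 ± 0.916 CPM (SD, n = 3), a log2 fold change of 1.09 (SE 0.12, edgeR adjusted p = 0.000186).

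Itgb2 (ENSMUSG00000000290, chromosome 10, 77530252 to 77565708) had 18809, 18658 and 16196 counts in MRL/lpr and 19851, 18784 and 20032 in MRL/mpj. After scaling these gave 394.7 ± 6.44 and 382.3 ± 5.75 CPM (SD, n = 3). The CPM did not overlap, but the difference was small and did not pass the test (log2 fold change 0.05, 95% interval -0.08 to 0.17, edgeR adjusted p = 0.636). Its sign depended on the scaling, at -0.08 with library size alone and -0.08 on the log2(FPKM + 0.1) scale.

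Itgam (ENSMUSG00000030786, chromosome 7, 128062640 to 128118491), the gene of the selected antigen, varied widely between libraries of one strain. It had 51426, 49889 and 40761 counts in MRL/lpr and 35116, 61718 and 52853 in MRL/mpj. MRL/mpj replicate 1 was the lowest library of all and MRL/mpj replicate 2 the highest. The log2 fold change was 0.09 (SE 0.21, 95% interval -0.43 to 0.62, edgeR adjusted p = 0.823), and it was -0.03 with library size alone and -0.11 without MRL/mpj replicate 1.

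The gene model Gm49368 shares 3450 of the 5024 exon bases of Itgam (68.7%, GENCODE M21) on the same strand, and it also took many counts. It had 44978, 46374 and 49385 counts in MRL/lpr and 63855, 30271 and 44931 in MRL/mpj. Where Itgam was low Gm49368 was high: the former had its lowest and the latter its highest count in MRL/mpj replicate 1, and the order was the opposite in MRL/mpj replicate 2. Added together, an alternative chosen after these values were seen, the pair had between 90146 and 98971 counts in every library. The sum was 2084 ± 63.1 CPM in MRL/lpr and 1882 ± 42.9 CPM in MRL/mpj (SD, n = 3), a log2 fold change of 0.15 (SE 0.05, 95% interval 0.03 to 0.27, edgeR adjusted p = 0.0902). How the counting assigned reads in the shared exons is not given in the sources used here, so the level of Itgam by itself is uncertain and the sum is the steadier value.

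**Figure D2:**
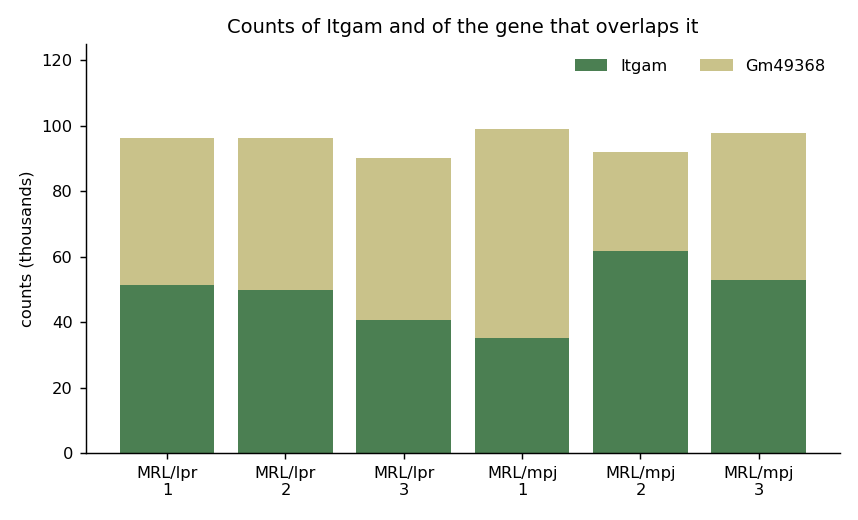
Stacked bars give the deposited counts, on an axis in units of 1000, of Itgam (lower part) and of the overlapping gene model Gm49368 (upper part) in each of the 6 libraries. The division between them moves from 35116 Itgam counts in MRL/mpj replicate 1 to 61718 in MRL/mpj replicate 2, while the height stays between 90146 and 98971.

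Itgad, the remaining beta 2 partner and not a member, was lower in MRL/lpr like Itgax: 78, 111 and 101 counts against 417, 371 and 373. Its log2 fold change was -1.82 (SE 0.21, edgeR adjusted p = 0.000324), 3.53-fold lower in MRL/lpr. Only 70 of its exon bases (1.55%) coincide with those of Cox6a2 on the opposite strand, though whether counting used strand is not given in the sources used here. Border macrophage markers, of cells that sit in the meninges and around vessels, moved in part in this direction: 3 of 8 were lower (Mrc1, Cbr2 and Stab1), beside 9.06% of all genes, and 0 were higher, and they summed to 465.2 to 505.6 CPM in MRL/lpr and 781.6 to 807.7 CPM in MRL/mpj. Cd163 of the same list pointed the other way without passing, at 397, 319 and 258 counts against 276, 210 and 224 (log2 fold change 0.62, edgeR adjusted p = 0.054). Of the 7 dendritic cell markers 1 was higher (Ccr7), beside 11.1% of all genes, and 0 were lower. Their sums were 38.1 to 41.1 CPM in MRL/lpr and 28.04 to 34.07 CPM in MRL/mpj. Their part in the lower Itgax and Itgad was not tested, and in bulk RNA fewer cells of a type and less RNA per cell cannot be told apart.

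Itgax and Itgad lie next to each other on chromosome 7, 3.72 kb apart, and Itgam ends 11.06 kb before Itgax, whereas Itgal ends 727.5 kb before Itgam. Within 150 kb on either side of the start of Itgax, a window chosen after the values were seen, 18 genes were tested, of which 4 were lower in MRL/lpr and 0 higher, beside 9.06% lower and 11.1% higher among all genes. Since the window was drawn around a gene that was lower, its count is a description. The 4 were Itgax, Itgad, Cox6a2, a cytochrome oxidase subunit gene (log2 fold change -1.64, SE 0.26, edgeR adjusted p = 0.00176), and Pycard, which encodes the inflammasome adaptor ASC (-1.56, SE 0.10, adjusted p = 5.57e-06). Cox6a2 lies wholly within the span of Itgad on the opposite strand (75.89 to 76.84 kb from the start of Itgax, beside 24.83 to 94.27 kb). As strand use in counting is not given, its counts may not be wholly separate from those of Itgad. The exons of Itgad share 70 of the 680 exon bases of Cox6a2. Between Pycard and Itgax lay genes that did not pass the test, among them Itgam and Gm49368. Armc5, which starts 107.8 kb after the start of Itgax and so beyond Itgad, did not pass either (log2 fold change 0.01, SE 0.09).

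**Figure D3:**
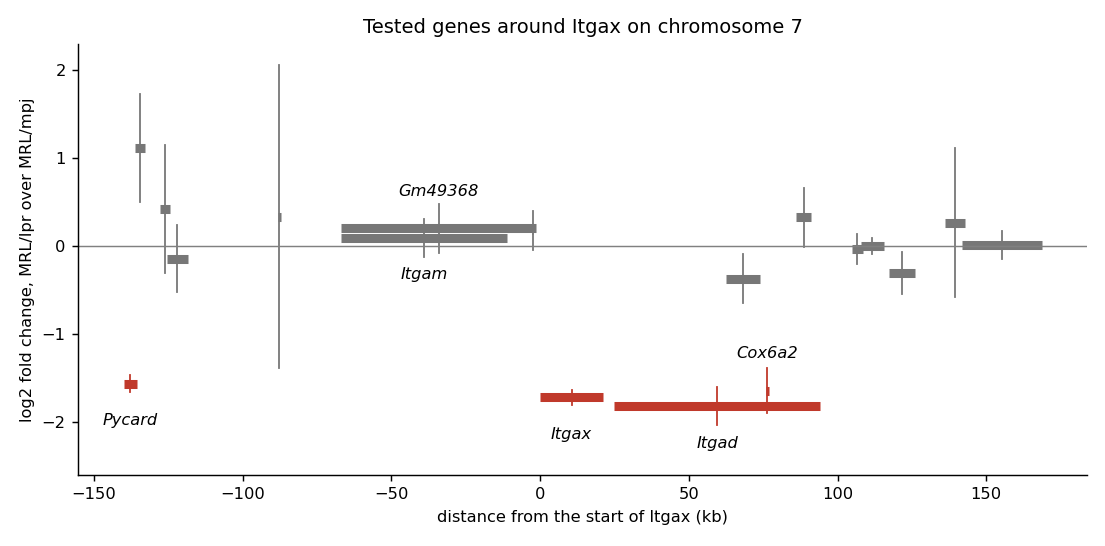
Horizontal bars show the extent of each tested gene by distance from the start of Itgax (kb) and its log2 fold change, MRL/lpr over MRL/mpj (height), with thin vertical lines of 1 SE on either side. The 4 red genes, with an adjusted p under 0.05, are Pycard, Itgax, Itgad and Cox6a2 and lie between -1.82 and -1.56; the grey genes, Itgam and Gm49368 among them, did not pass.

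Per length, Itgax was 3.39 to 3.57 FPKM in MRL/lpr and 11.97 to 12.7 FPKM in MRL/mpj, far below Itgam at 160.05 to 189.79 and 126.45 to 228.78 FPKM. The ratio of Itgax to Itgam FPKM within a library was 0.0181, 0.0185 and 0.0223 in MRL/lpr and 0.0947, 0.0555 and 0.0674 in MRL/mpj, without overlap. It was 3.62-fold higher in MRL/mpj (exact permutation test, two-sided, p = 0.1, the smallest that 3 against 3 libraries can give), and 3.65-fold higher when the counts of Gm49368 were added to those of Itgam. Since this ratio is taken within a library it does not depend on the scaling between libraries. The summed FPKM of the 4 alpha chains over that of Itgb2 was 1.67 ± 0.062 in MRL/lpr and 1.69 ± 0.467 in MRL/mpj (SD, n = 3, exact permutation test, p = 1.0). With the Gm49368 counts added it was 2.59 ± 0.123 and 2.49 ± 0.022 (exact permutation test, p = 0.2).

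The alpha 4 and beta 7 genes and Itgae, which together encode the receptors that lymphocytes use to enter and stay in mucosal tissue, were higher in MRL/lpr. Itga4 (ENSMUSG00000027009, chromosome 2, 79255426 to 79333123), the CD49d chain, had 1176, 1362 and 1061 counts in MRL/lpr and 525, 550 and 676 in MRL/mpj. Each MRL/lpr library exceeded each MRL/mpj library, at 26.5 ± 2.16 against 11.4 ± 1.43 CPM (SD, n = 3). The log2 fold change was 1.21 (SE 0.13, edgeR adjusted p = 0.000152). Itga4 shares 8.04% of its exon bases with Cerkl, whose own row held few counts.

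Itgb7 (ENSMUSG00000001281, chromosome 15, 102215995 to 102231944, minus strand) was the least abundant member by count and rose the most. It had 475, 376 and 414 counts in MRL/lpr and 185, 166 and 86 in MRL/mpj, so MRL/mpj replicate 3 stood below the other two of its strain and no library overlapped. The mean was 9.33 ± 1.17 CPM in MRL/lpr and 2.86 ± 1.05 CPM in MRL/mpj (SD, n = 3), a log2 fold change of 1.71 (SE 0.29, edgeR adjusted p = 0.00248), or 3.27-fold higher. Without any 1 library it lay between 1.43 and 1.91. Relative to Itgb1, the other beta partner of alpha 4, the FPKM ratio was 0.0377, 0.0345 and 0.0348 in MRL/lpr and 0.0114, 0.0111 and 0.00518 in MRL/mpj, 4.11-fold higher in MRL/lpr (exact permutation test, p = 0.1, the smallest possible).

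Itgae, the CD103 chain that pairs with beta 7 alone, had 360, 380 and 298 counts in MRL/lpr and 131, 141 and 164 in MRL/mpj. Its log2 fold change was 1.42 (SE 0.18, edgeR adjusted p = 0.000551), 2.68-fold higher, again without overlap.

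Lymphocyte markers moved with these 4 genes. The shares of all genes to set beside each list here are 11.1% higher and 9.06% lower. Of 9 T cell markers, 7 were higher in MRL/lpr and 0 lower, and they summed to 21.92 to 28.14 CPM in MRL/lpr and 7.05 to 7.67 CPM in MRL/mpj. Cd3e, a chain of the T cell receptor complex, had 103, 92 and 120 counts against 2, 0 and 9, and Cd8b1 had 70, 77 and 28 against 0 in each MRL/mpj library. Of 5 NK cell markers tested out of 7, 3 were higher and 0 lower (Prf1, Gzma and Eomes), with sums of 10.07 to 10.18 CPM against 3.08 to 4.07 CPM. Among the defining NK genes Klra8 was at 0 in each library and Ncr1 at 0 in 1 library of each strain. Of 5 B cell markers tested out of 6, 0 passed the test, with sums of 14.34 to 15.17 and 11.05 to 14.98 CPM. The part of these cells in the higher Itgal, Itga4, Itgb7 and Itgae was not tested.

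Myeloid markers differed less evenly. Beside these lists, 11.1% of all genes were higher and 9.06% lower. Of 7 monocyte markers 3 were higher, Plac8 and Vcan among them, and 1 was lower (Chil3), with sums of 579.6 to 660.4 CPM in MRL/lpr and 570.9 to 596.7 CPM in MRL/mpj. Of 10 neutrophil markers 3 were higher (S100a8, Ngp and Retnlg) and 0 lower, with sums of 724.6 to 851.2 and 578.6 to 643.6 CPM. Of 10 microglia markers 0 were higher and 2 lower, Gpr34 among them, a share close to the 20.2% of all genes called in either direction. Cx3cr1 stood far apart in MRL/lpr replicate 2, at 132706 counts beside 10645 and 10334 in the other two MRL/lpr libraries and 28995, 27912 and 29349 in MRL/mpj, and it is part of the microglia sums. The part of these cells in the integrin values was not tested.

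**Figure D4:**
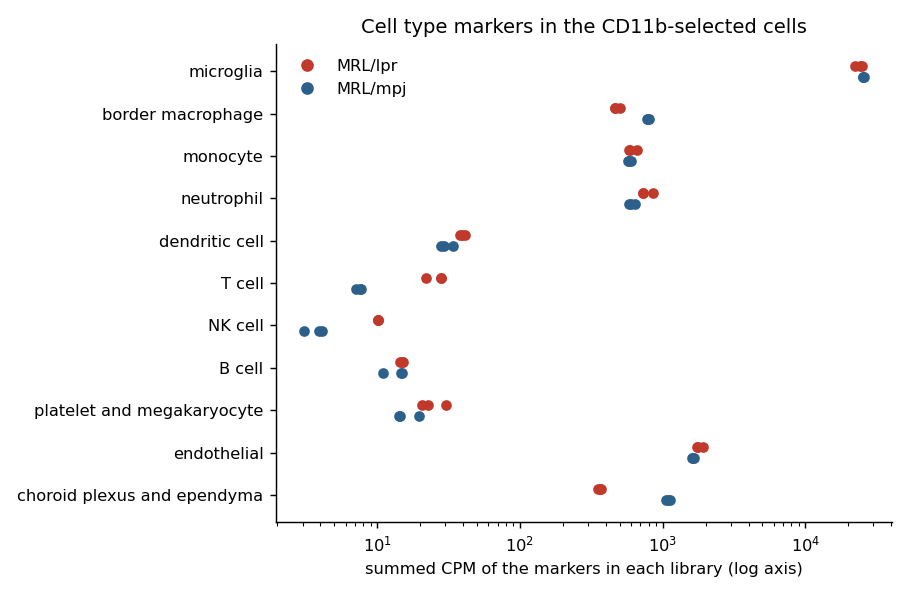
Summed TMM-scaled CPM (logarithmic axis) of the marker list of each cell type in each library, with MRL/lpr in red and MRL/mpj in blue. The T cell sums are 21.92 to 28.14 CPM in MRL/lpr and 7.05 to 7.67 in MRL/mpj and those of NK cells 10.07 to 10.18 and 3.08 to 4.07, while border macrophage and choroid plexus sums are lower in MRL/lpr.

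The beta 1 and alpha 6 genes encode receptors for matrix on many cell types, and their differences lay at the threshold: Itgb1 did not pass the test, and Itga6 passed it narrowly. Itgb1 (ENSMUSG00000025809, chromosome 8, 128685654 to 128733200), the CD29 chain, had 18578, 15974 and 17461 counts in MRL/lpr and 23605, 22181 and 24230 in MRL/mpj. Its CPM did not overlap between the strains, at 384.1 ± 40.4 and 456.2 ± 11.3 (SD, n = 3). The log2 fold change of -0.25 (SE 0.08, 95% interval -0.43 to -0.07) missed the threshold (edgeR adjusted p = 0.0586), and it passed without MRL/lpr replicate 3 (-0.31, adjusted p = 0.0104) and with DESeq2 (-0.26, adjusted p = 0.0372).

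Itga6 (ENSMUSG00000027111, chromosome 2, 71745616 to 71858416), the CD49f chain of laminin receptors, had 8687, 8531 and 7242 counts in MRL/lpr and 10240, 10318 and 11251 in MRL/mpj. The strains did not overlap, at 179.8 ± 5.89 and 207.3 ± 8.53 CPM (SD, n = 3), and the log2 fold change was -0.21 (SE 0.06, edgeR adjusted p = 0.0494). This call stood at the threshold: it was kept without MRL/lpr replicate 3 (adjusted p = 0.0343), and without any other 1 library the adjusted p lay between 0.0841 and 0.176. Itgb4, its other beta partner, had 155, 262 and 260 counts against 281, 277 and 294 and did not pass (log2 fold change -0.14, SE 0.24, edgeR adjusted p = 0.751).

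Itgb5 is known for its high expression in microglia, and it was the most abundant member in both strains per length. This gene (ENSMUSG00000022817, chromosome 16, 33829665 to 33949338) had 85499, 85755 and 98045 counts in MRL/lpr and 107086, 101302 and 105205 in MRL/mpj. After scaling, MRL/lpr replicate 3 lay above and the other two MRL/lpr libraries below all of MRL/mpj, at 1996 ± 304 and 2044 ± 34.5 CPM (SD, n = 3). The log2 fold change of -0.03 (SE 0.10, 95% interval -0.25 to 0.18, edgeR adjusted p = 0.854) depended on MRL/lpr replicate 3, without which it was -0.16 (SE 0.03, adjusted p = 0.00462). Leaving out either of the other MRL/lpr libraries gave 0.03.

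Itgav (ENSMUSG00000027087, chromosome 2, 83724397 to 83806916), the CD51 chain, had 3399, 2985 and 2494 counts in MRL/lpr and 6369, 5655 and 3779 in MRL/mpj. MRL/mpj replicate 3 lay close to the MRL/lpr libraries, at 72.63 CPM beside 72.3 CPM in MRL/lpr replicate 1, and the other two MRL/mpj libraries were at 123.9 and 113.1 CPM. The log2 fold change of -0.66 (SE 0.19, 95% interval -1.12 to -0.21) missed the threshold (edgeR adjusted p = 0.0511). Without MRL/mpj replicate 3 it was -0.86 (adjusted p = 0.00135), over all 6 left-out libraries it ranged from -0.86 to -0.51, and DESeq2 gave -0.67 (adjusted p = 0.000624).

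Further partners of alpha V differed in direction without passing the test. Itgb8, whose pairing with alpha V releases TGF-beta, had 208, 131 and 140 counts in MRL/lpr and 272, 265 and 343 in MRL/mpj (log2 fold change -0.70, SE 0.23, edgeR adjusted p = 0.0612). Without MRL/lpr replicate 1 it was -0.90 (adjusted p = 0.0367). Itgb3, the vitronectin receptor chain, had 4274, 4769 and 5027 counts in MRL/lpr and 4233, 2006 and 2119 in MRL/mpj. MRL/mpj replicate 1 stood at about the level of MRL/lpr, and the log2 fold change was 0.94 (SE 0.33, edgeR adjusted p = 0.115) with it and 1.36 (adjusted p = 0.000402) without it.

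In the order of levels per length, MRL/lpr ran from Itgb5 (479.1 ± 56.6 FPKM) through Itgam (177.9 ± 15.7), Itgb2 (110.7 ± 5.24), Itgb1 (80.4 ± 6.92), Itga6 (16.8 ± 1.06), Itgav (5.19 ± 0.647), Itgax (3.47 ± 0.0929), Itgal (3.28 ± 0.195) and Itgb7 (2.87 ± 0.345) to Itga4 (1.62 ± 0.163). Itgb5 was gene 79 of 27572 with an FPKM above 0. Neighbours whose ranges overlapped were Itgax with Itgal and Itgal with Itgb7. In MRL/mpj the order was the same but for Itgax (12.4 ± 0.416 FPKM), which stood above Itgav (8.94 ± 2.34 FPKM), and the only overlapping neighbours were Itgb7 (0.953 ± 0.351 FPKM) and Itga4 (0.757 ± 0.0929 FPKM). Errors are SD over 3 libraries and rest on the deposited FPKM, in which Itgam carries the uncertainty of the shared exons.

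**Figure D5:**
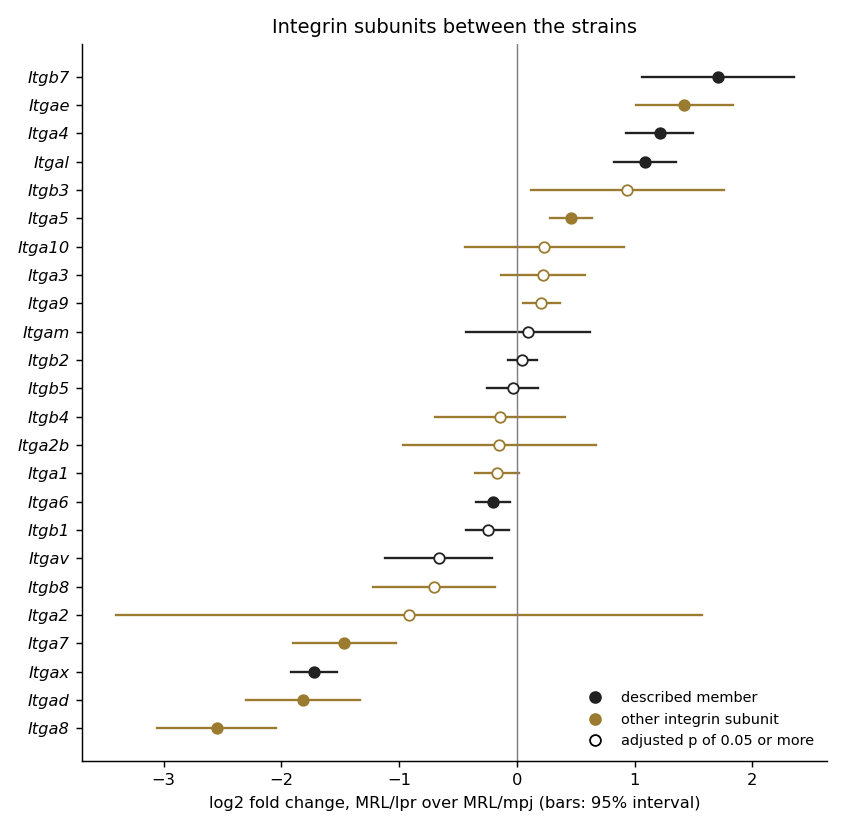
Log2 fold change, MRL/lpr over MRL/mpj, of the 24 integrin subunits tested (points) with 95% intervals (bars); black marks the 10 members, gold the other subunits, and open points those with an adjusted p of 0.05 or more. Itgb7 at 1.71 is the highest and Itga8 at -2.55 the lowest.

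Of 16 other integrin subunits, 14 were tested, with 2 higher and 3 lower (35.7% against 20.2% of all genes) and a median log2 fold change of -0.15. Besides Itgae, Itga5, the fibronectin receptor chain, was higher at 73.2 ± 2.70 against 53.1 ± 3.13 CPM (SD, n = 3, log2 fold change 0.46, SE 0.08, edgeR adjusted p = 0.0029). Besides Itgad, Itga8 had 45, 60 and 51 counts against 348, 362 and 324 (-2.55, SE 0.22, adjusted p = 5.17e-05), and Itga7 had 238, 299 and 370 against 941, 959 and 962 (-1.47, SE 0.19, adjusted p = 0.000632). Both encode alpha chains that pair with beta 1 and are known mainly from mesenchymal and muscle cells. Choroid plexus and ependyma markers moved with them, with 5 of 6 lower. Their sums were 352.8 to 367.6 CPM in MRL/lpr and 1049 to 1134 CPM in MRL/mpj. For this list and the 3 that follow, the share of all genes that were lower was 9.06%. Of 5 oligodendrocyte markers 2 were lower, with sums of 83.98 to 99.3 and 123.3 to 152.3 CPM, of 5 neuron markers 2, with 9.77 to 13.66 and 22.52 to 25.36 CPM, and of 5 astrocyte markers 1, with 96.76 to 139.5 and 168.9 to 175.2 CPM, and none of these 3 lists had a higher gene at an adjusted p under 0.05. The part of these cells was not tested. The other two subunits, Itgb6 and Itga11, had too few counts to be tested.

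Genes that switch integrins on and join them to the cytoskeleton were tested for 39 of 40 listed. Of these, 28 did not pass, 9 were higher and 2 lower (28.2% against 20.2% of all genes), with a median log2 fold change of 0.07. Tln2, one of the talins that bind the beta tail, had 14553, 14613 and 16807 counts in MRL/lpr and 7594, 7280 and 7680 in MRL/mpj (1.21, SE 0.10, edgeR adjusted p = 3.81e-05). Zyx, a focal adhesion protein gene, and Rapgef3, an exchange factor gene for Rap, were higher by 0.58 and 0.54 (edgeR adjusted p = 0.0329 and 0.0299). Tln1, Pxn, Ptk2b, Apbb1ip and Syk were also higher, by 0.24 to 0.52.

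Actn1, which encodes an actin crosslinker, had 3673, 3591 and 3706 counts in MRL/lpr and 7926, 7365 and 8472 in MRL/mpj (log2 fold change -0.93, SE 0.08, edgeR adjusted p = 4.99e-05), and Lims1, the PINCH1 gene, was lower by a log2 fold change of -0.45 (adjusted p = 0.00711). The number of higher genes was 4 instead of 9 without any 1 of the MRL/mpj libraries, and the number of lower genes was 4 instead of 2 without MRL/lpr replicate 3. Zyx lost its call without any 1 MRL/mpj library (adjusted p from 0.0783 to 0.108), and Rapgef3 without any 1 library other than MRL/lpr replicate 1 (0.0534 to 0.107). Tln1 and Apbb1ip also lost theirs without any 1 MRL/mpj library (edgeR adjusted p = 0.0942 to 0.116 and 0.0639 to 0.104). Ptk2b lost its call without any 1 library other than MRL/lpr replicate 3 (0.0503 to 0.0937). With library size only, Ptk2b, Apbb1ip and Rapgef3 did not pass (edgeR adjusted p = 0.244, 0.216 and 0.0678). Tln2, Pxn and Syk kept their calls with each library left out.

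Among 40 genes of integrin ligands, 39 were tested, with 4 higher and 11 lower (38.5% against 20.2% of all genes) and a median log2 fold change of -0.15. Ligands of beta 2 integrins differed in direction. Icam1, the main ligand of CD11a with CD18, had 35467, 36498 and 29532 counts in MRL/lpr and 18157, 18735 and 19121 in MRL/mpj (1.03, SE 0.06, edgeR adjusted p = 4.96e-06). C3, whose fragment iC3b is bound by CD11b and CD11c, had 2292, 2370 and 2476 against 1208, 1186 and 1065 (1.23, SE 0.11, adjusted p = 5.17e-05). Of the other ICAM genes listed, Icam2 (0.05), Icam4 (1.39) and Icam5 (-0.01) did not pass (edgeR adjusted p = 0.839, 0.333 and 0.991), with at most 18 counts of Icam4 in any library, and F11r, whose product JAM-A binds CD11a with CD18, was lower (-0.31, SE 0.07, adjusted p = 0.0143). Its call was lost without any 1 of MRL/lpr replicates 1 and 2 and MRL/mpj replicates 1 and 2 (0.0552 to 0.07). Thbs1, the thrombospondin-1 gene, was higher by 0.75 (SE 0.06, adjusted p = 4.35e-05). Cyr61, a matricellular protein gene, was at 0.31 (adjusted p = 0.0408), a call lost without any 1 library but MRL/lpr replicate 3 (0.0965 to 0.14).

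The list holds 7 genes of laminin chains, the basement membrane ligands of alpha 6, a group not set apart beforehand. Of these, 5 were lower, beside 9.06% of all genes, and this count is a description. Lama5 (0.12, edgeR adjusted p = 0.493) and Lamb2 (-0.03, adjusted p = 0.883) did not pass, and Lamb2 passed as lower without MRL/lpr replicate 3 (-0.20, adjusted p = 0.012). Lamb1 had 143, 134 and 103 counts in MRL/lpr and 514, 470 and 459 in MRL/mpj (log2 fold change -1.75, SE 0.18, edgeR adjusted p = 0.000118). Lama2 was lower by -1.26 on the log2 scale (adjusted p = 0.00328), and Lama1 by -1.31 (adjusted p = 0.0433), a call that was lost without any 1 of MRL/lpr replicates 1 and 2 and MRL/mpj replicates 1 and 3 (0.115 to 0.144). Jam2, a junctional adhesion molecule that alpha 4 integrins can bind, had 6709, 7265 and 5720 counts against 17177, 16582 and 17984 (-1.22, SE 0.07, adjusted p = 3.11e-06). Without MRL/lpr replicate 3, 17 ligand genes were lower.

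Choroid plexus, border macrophage, oligodendrocyte and neuron marker sums, given above, were lower in MRL/lpr, as were most of the called ligand genes. Endothelial markers, of cells that carry such ligands, had 2 of 7 higher (Flt1 and Ly6c1) and 1 lower (Tek). Their sums were 1756 to 1930 CPM in MRL/lpr and 1613 to 1667 CPM in MRL/mpj. Beside this list and those that follow, 11.1% of all genes were higher and 9.06% lower. Of 5 erythrocyte markers 1 was higher (Alas2), with sums of 685.4 to 1134 and 610.3 to 673.7 CPM, and of 3 platelet markers tested out of 6, 1 was higher (Gp9), with sums of 20.63 to 30.34 and 14.22 to 19.61 CPM. Their part in the ligand values was not tested. The counter-receptors of alpha 4, named outside the rule for named genes, did not pass: Vcam1 had 4564, 4392 and 4015 counts against 5386, 5025 and 5321 (log2 fold change -0.10, SE 0.07, edgeR adjusted p = 0.333), and Madcam1 had at most 12 counts in any library and was not tested.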

How the data were processed

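RNA-seq of CD11b-selected brain cells was available from 3 MRL/lpr and 3 MRL/mpj libraries. The study's methods used DESeq2, calling genes at a log2 fold change of 1 or more in size and q under 0.05. The labels' processing notes list cutadapt 1.9.3, HISAT2 2.0.4, Cuffdiff 2.2.1, Cufflinks and GRCm38, while the counting tool and annotation are not given in the sources used here. The labels name ribosomal RNA removal and a stranded total RNA kit, and the methods mRNA purification. The authors deposited raw whole-number counts per gene and FPKM values per library. Counts piled up at multiples of 4, so 1 read pair may be worth 4 counts, and the true depth may be lower than the totals.

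Symbols, exons and coordinates came from GENCODE M21 (GRCm38), which matched 55141 of 55401 rows. The other 260 rows held between 8124 and 16804 counts per library. Counts were tested with edgeR 4.0.16 in R 4.3.3 (filterByExpr at its defaults of 10 counts and 15 counts in total, TMM, robust quasi-likelihood test, Benjamini-Hochberg over 19554 genes, no covariate). The step was also run on simulated data with less spread between libraries than these data, which cannot show its error rate here. The common biological coefficient of variation was 0.26. Intervals are 95% intervals of the fit. Ratios within a library were compared by two-sided exact permutation tests. Promoters came from RefSeq (GRCm38.p6), with an entry for 7 of the 10 members. FPKM implied gene lengths between 1.11 and 1.14 times those of M21 for the members.

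The members and lists (other subunits, activation and adaptor genes, ligands, and markers of 15 cell types) were chosen with earlier results of these data known. Named were all members, Itgad, Itgae, Itgb8, Itgb3 and Itgb4, and from the other subunit, activation and ligand lists up to 4 genes per direction with the largest absolute log2 fold change among those with an adjusted p under 0.05 and at least 10 counts in each library, while marker lists are given by their summed CPM and up to 4 genes. Some genes that the rule would name are not reported here, and list counts cover all members of a list. Alternatives were DESeq2 1.42.0, limma 3.58.1 on log2 of the deposited FPKM plus 0.1 or 1 (genes with a mean FPKM of at least 0.1, or unfiltered), other scalings and filters, counts divided by 4, a replicate block, and each library left out in turn. Protein sequences were not used here.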

Additional observations from a re-analysis of the deposited data

How the results depend on the processing

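The higher calls of Itgal, Itga4 and Itgb7 and the lower call of Itgax held, at an adjusted p under 0.05, under all 18 alternatives run for each of these genes, with log2 fold changes of 0.67 to 1.14, 0.57 to 1.32, 1.0006 to 1.91 and -1.85 to -1.59. A log2 fold change below the 1 of the study's rule was found for Itgal, at 0.96 with library size only and at 0.92 by limma on log2(FPKM + 0.1) with and without a filter, where 2 members instead of 3 passed that rule as higher. The smallest values came from log2(FPKM + 1), a scale that understates changes of low genes, and by limma on it 1 member instead of 3 passed the study's rule as higher, and 351 genes were higher and 266 lower in all. The number of lower members was 2, and it was 1 with DESeq2 size factors, with TMM computed without mitochondrial genes and the 20 of highest abundance and with no low-count filter, 4 with library size only, and 1 to 4 with 1 library left out. Library size only gave 2790 lower genes and 6 lower activation genes. By limma on FPKM the activation list had 4 higher genes under each of the 3 settings and 4 lower genes with log2(FPKM + 0.1), and 1375 genes were higher without a filter. Leaving out 1 library gave 4 to 10 higher and 2 to 4 lower activation genes, 8 to 17 lower ligand genes, and 1177 to 1971 lower genes in all, the lowest without MRL/mpj replicate 1. The causes were not tested.

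Near the threshold or near 0, calls moved. Itgb1 passed with library size only (-0.37, adjusted p = 0.00671), with DESeq2 (-0.26, adjusted p = 0.0372) and by limma with log2(FPKM + 0.1) (-0.37), log2(FPKM + 1) (-0.37) and no filter (-0.37), and ranged from -0.31 to -0.17 with 1 library left out. Itgav passed with library size only (-0.78, adjusted p = 0.0271), with dispersions that were not robust (-0.66, adjusted p = 0.0384), with DESeq2 (-0.67, adjusted p = 0.000624) and with a replicate block (-0.63, adjusted p = 0.0166), and ranged from -0.86 to -0.51 with 1 library left out. Itga6 lost its call in 11 of 18 alternatives: with DESeq2 size factors (-0.20, adjusted p = 0.0537), TMM without abundant genes (-0.20, adjusted p = 0.0507), no low-count filter (-0.21, adjusted p = 0.0788), dispersions that were not robust (-0.21, adjusted p = 0.0604), DESeq2 (-0.21, adjusted p = 0.0561), a replicate block (-0.21, adjusted p = 0.13) and 5 of the 6 left-out libraries, over which it ranged from -0.23 to -0.18. Itgam turned to -0.029 with library size only and ranged from -0.11 to 0.29 with 1 library left out. Itgb2 turned to -0.077 with library size only and to -0.075, -0.075 and -0.075 by limma with log2(FPKM + 0.1), log2(FPKM + 1) and no filter. Itgb5 ranged from -0.163 to 0.029 with 1 library left out. The summed alpha chains over Itgb2 had a log2 difference of -0.21 to 0.21 with 1 library left out.

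Libraries with the same number did not deviate together (correlations of -0.054, -0.031 and -0.063 across genes). No pairing by number was thus seen across genes, and the main test used none. A replicate block gave 1754 higher and 1309 lower genes instead of 2178 and 1772, and changed no member's call except those of Itgav and Itga6. With 3 libraries per strain, differences the size of those of Itgb1 and Itga6 lie at the limit of what the spread allows.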

Other observations

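Single libraries also stood apart in genes of the alpha V and TGF-beta axis, named here after their values were seen. Nrros, whose product presents latent TGF-beta on microglia to alpha V integrins, had 7212, 2572 and 6556 counts in MRL/lpr and 5714, 5722 and 6327 in MRL/mpj, so MRL/lpr replicate 2 was far below the other two of its strain. Its log2 fold change was 0.07 (edgeR adjusted p = 0.939), and 0.42 (adjusted p = 0.00842) without that library. Edil3, a ligand gene of alpha V integrins, had 0, 0 and 46 counts in MRL/lpr and 61, 49 and 38 in MRL/mpj. Tgfb1 had 13928, 14787 and 16903 counts against 19399, 18871 and 18209, with a log2 fold change of -0.12 (edgeR adjusted p = 0.507), and -0.27 (adjusted p = 0.00714) without MRL/lpr replicate 3. Together with Itgav in MRL/mpj replicate 3 and Itgb3 in MRL/mpj replicate 1, these are values of single libraries that the group means do not show. By a measure scaled on library totals, MRL/lpr replicate 3 also stood apart across well-counted genes, not only in those named here. Its median squared difference from MRL/lpr replicates 1 and 2 was 27.2 and 27.45 times that of count sampling. The same value was 9.27 between MRL/lpr replicates 1 and 2 and 10.7 to 12.2 between MRL/mpj libraries. As each pair was scaled by its totals alone, the 6.38% share of CT010467.1 in MRL/lpr replicate 3 enters the values of that library. How much it adds was not tested. If 1 read pair is worth 4 counts, all of these values are too high as multiples of sampling.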
